A study of Mus musculus with 12 samples.

Results

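Gene expression was compared between the IL-25- epithelium of the gallbladder and that of the proximal small intestine, over all genes, in 6 of the 12 RNA sequencing libraries of the series. The 6 libraries were taken by tissue and sort gate, 3 from each organ, and the other 6 hold the IL-25+ cells of the same organs. All mice carried Flare25, a reporter allele in which cells that transcribe Il25 make a red fluorescent protein. Live single cells that stained for EpCam, a surface protein of epithelia, were sorted, and the IL-25- gate took those without red fluorescence. That gate holds every other epithelial cell type of the organ and is no single cell type. For the gallbladder libraries the labels list HDM AF647, a dye-coupled allergen, given 1 day before collection, and they list no treatment for the small intestine, while the protocol field of all libraries reads homeostasis. A difference between the organs and a difference across that label cannot be told apart. The labels give no age, sex or number of mice, and do not say whether libraries came from separate mice, so that p values measure only the spread between these libraries.

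The gallbladder stores bile, draws salt and water from it and covers itself with mucus, and its lining is a single layer of biliary epithelium closely related to the cholangiocytes of the bile ducts. The small intestine is lined by a renewing sheet in which stem cells give rise to absorptive enterocytes and to secretory goblet, Paneth, enteroendocrine and tuft cells. Biliary identity is tied to transcription factors such as SOX17 and the ONECUT family, and intestinal identity to CDX2, GATA4 and the HNF4 family.

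Levels are given as CPM, the counts of a gene scaled to a common library total, in libraries 1, 2 and 3 of a group in that order. Differences are log2 fold changes of gallbladder over small intestine from a model fitted with scaled library sizes, as estimate ± SE (3 libraries in each group). Tests are edgeR's quasi-likelihood test with Benjamini-Hochberg adjustment, and a gene was called at an adjusted p under 0.05. The analysis was repeated in 15 alternative ways, by other tools and filters and with libraries left out. The gallbladder libraries held 64736650, 31022526 and 34921443 counts and the intestinal libraries 32775889, 36785509 and 37760914. Il25 itself, by whose reporter the cells were sorted, had 48, 1 and 0 counts in the gallbladder and 0, 1 and 2 in the intestine, and the difference did not pass the test (adjusted p = 0.121).

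Markers matched the labels in all 6 libraries. The epithelial markers Epcam, Cdh1, Krt8 and Krt18 were read in each, Cdh1 (E-cadherin) at 2189, 1829 and 1053 CPM in the gallbladder and 1307, 852 and 1212 CPM in the intestine. The biliary factor Sox17 stood at 97.2, 77.9 and 158 CPM in the gallbladder and at 0.153, 0.19 and 1.67 CPM in the intestine, while Cdx2 stood at 1.71, 0.322 and 0 and 40.3, 30.6 and 39.3 CPM. Among the biliary markers Krt7 (267, 228 and 148 against 92.4, 123 and 56.7 CPM) did not pass the test, and Cftr was higher in the intestine. Gallbladder library 1 and intestinal library 3 differed from the other libraries of their organs in some genes typical of the other organ. The 20 brush border enzyme genes of the intestine reached a median of 5.94% of their mean intestinal level in gallbladder library 1, against 0.135% in library 2 and 0.0593% in library 3. In intestinal library 3 the gallbladder mucin gene Muc1 reached 64.2 CPM, against 5.25 and 3.97 CPM in libraries 1 and 2. The 15 identity genes of the gallbladder did not set that library apart by their median, at 4.35, 6.27 and 6.14% of the gallbladder level in libraries 1, 2 and 3. The lowest of them stood at 1.15% in library 3, against 0.0848 and 0% in the others. Where leaving out both libraries moved a fold change printed with its SE by over 1.5 times, the log2 value without the 2 is given beside it, except for genes at 0 counts in the remaining libraries of an organ.

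To show the DNA in front of genes called in either direction, the 250 bases before the transcription start follow for 3 genes of the enterocyte surface that were lower in the gallbladder (Sis, Alpi and Cdhr5) and 3 genes that were higher there (Muc1, Slc10a2 and Atp6v0a4). The sequences are from RefSeq promoters in GRCm38.p6, read 5′ to 3′ on the strand of the gene, which is the minus strand for all but Muc1. Capitals mark matches, on either strand, to any of 3 short motifs: TTTATG (CDX-type), CAAAGTCCA (HNF4-type) and ACAAT (SOX-type core).
Sis, chr3:72967864-72968113: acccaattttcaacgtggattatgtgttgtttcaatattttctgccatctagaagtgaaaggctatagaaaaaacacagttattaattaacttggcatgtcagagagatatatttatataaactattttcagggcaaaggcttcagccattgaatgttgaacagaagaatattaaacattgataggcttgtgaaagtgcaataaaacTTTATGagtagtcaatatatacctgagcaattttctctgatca
Alpi, chr1:87101607-87101856: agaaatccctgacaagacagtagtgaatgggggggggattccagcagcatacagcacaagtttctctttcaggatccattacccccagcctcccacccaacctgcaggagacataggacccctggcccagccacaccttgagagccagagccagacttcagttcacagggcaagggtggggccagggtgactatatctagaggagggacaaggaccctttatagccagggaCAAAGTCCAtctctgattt
Cdhr5, chr7:141276787-141277036: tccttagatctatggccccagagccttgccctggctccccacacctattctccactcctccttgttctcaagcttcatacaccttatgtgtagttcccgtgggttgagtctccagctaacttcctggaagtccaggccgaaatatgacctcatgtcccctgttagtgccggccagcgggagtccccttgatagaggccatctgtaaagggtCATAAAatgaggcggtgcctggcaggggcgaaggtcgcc
Muc1, chr3:89228806-89229055: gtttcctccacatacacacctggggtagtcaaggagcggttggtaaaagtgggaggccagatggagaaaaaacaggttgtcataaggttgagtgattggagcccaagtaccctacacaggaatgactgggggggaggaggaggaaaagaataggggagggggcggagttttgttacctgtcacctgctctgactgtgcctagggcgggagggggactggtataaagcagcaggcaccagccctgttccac
Slc10a2, chr8:5105288-5105537: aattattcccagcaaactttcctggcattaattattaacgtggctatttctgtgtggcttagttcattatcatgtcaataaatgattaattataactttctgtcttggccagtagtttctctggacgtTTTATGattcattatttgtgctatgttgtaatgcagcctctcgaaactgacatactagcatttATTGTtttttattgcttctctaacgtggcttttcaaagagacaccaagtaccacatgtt
Atp6v0a4, chr6:38124587-38124836: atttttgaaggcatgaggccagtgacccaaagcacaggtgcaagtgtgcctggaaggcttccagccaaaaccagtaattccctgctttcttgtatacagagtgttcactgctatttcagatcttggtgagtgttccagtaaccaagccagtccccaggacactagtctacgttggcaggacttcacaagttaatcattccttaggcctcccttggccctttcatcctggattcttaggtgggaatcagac

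These 6 promoters were chosen after the matches were seen. Counted back from the start, Sis holds TTTATG at -43 to -38. Alpi holds CAAAGTCCA at -19 to -11, and Cdhr5 holds TTTATG on the opposite strand at -39 to -34. Slc10a2 holds TTTATG at -122 to -117 and ACAAT on the opposite strand at -59 to -55. The position of Slc10a2 given further below, from GENCODE, begins upstream of this RefSeq start. The ACAAT match therefore lies inside the gene as GENCODE places it. The windows of Muc1 and Atp6v0a4 hold none of the 3 letter strings. A further motif of the plan, GTTAAT, was neither marked nor counted. It is present in the window of Atp6v0a4 and, on the opposite strand, in those of Sis and Slc10a2. The marked matches therefore do not separate the genes called lower from those called higher. Promoters were matched by symbol for 11625 of the 16636 genes tested, of which 6.29% held TTTATG, 0.396% CAAAGTCCA and 18.6% ACAAT. Among 1460 matched genes called lower in the gallbladder the shares were 8.36, 0.890 and 20.4%, and among 1594 called higher they were 5.58, 0.376 and 17.8%. No motif contains another, and a match describes the sequence only.

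Of 16636 genes tested, 4099 (24.6%) were called, 2160 of them (13%) higher and 1939 (11.7%) lower in the gallbladder. The list counts below stand beside these shares, and several of the smaller counts lie near them. Without gallbladder library 1 and intestinal library 3, 2974 of 17282 genes (17.2%) were called, 1485 (8.59%) higher and 1489 (8.62%) lower. Of the 4099 genes, 2760 were called in the same direction in both fits and 0 in opposite directions. Over all genes tested the median was -0.03 on the log2 scale. Many differences were large: 454 genes were called higher by at least 5 on the log2 scale and 511 lower by at least 5. In these bulk libraries fewer cells of a type and less RNA per cell cannot be told apart.

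**Figure D1:**
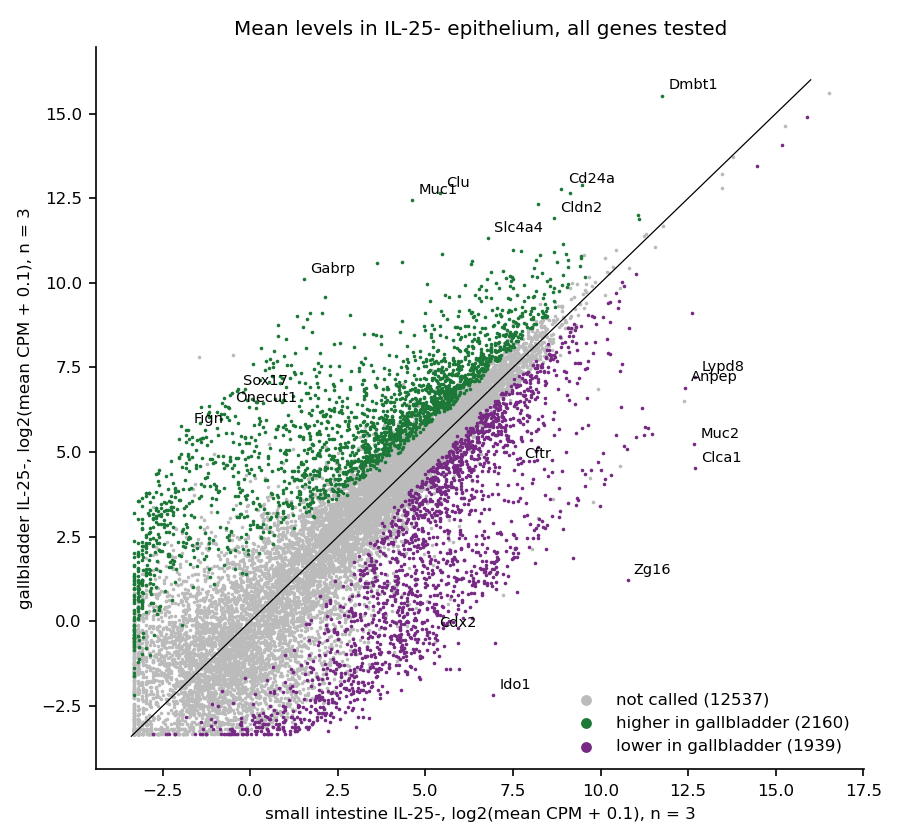
Mean level of each gene tested in the 3 IL-25- gallbladder libraries (vertical axis) against that in the 3 intestinal libraries (horizontal axis), both as log2(CPM + 0.1), with called genes coloured by direction, 18 genes labelled and the line of equal levels drawn. The 2160 genes called higher lie above the line and the 1939 called lower lie below it, with Muc1 and Clu far above and Muc2 and Clca1 far below.

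Most biliary identity genes were higher in the gallbladder, with 15 of 19 tested members higher, 1 lower and 3 not passing (median log2 fold change 3.07, and 12 higher and 1 lower without the 2 libraries). Muc1, a cell-surface mucin (ENSMUSG00000042784, chromosome 3, 89229057 to 89233381 in GRCm38), stood at 4066, 5505 and 7140.0 CPM in the gallbladder and 5.25, 3.97 and 64.2 CPM in the intestine. The groups lay far apart, and the log2 fold change was 7.88 ± 1.21 (adjusted p = 0.00127), or 10.41 without the 2 libraries. Spp1, which encodes the secreted phosphoprotein osteopontin, had 478, 522 and 653 and 1.62, 0.489 and 7.36 CPM. Cd24a, a small glycoprotein of the epithelial surface, had 5863, 7238 and 7716 and 554, 435 and 426 CPM, a difference of 3.81 ± 0.32 (adjusted p = 6.71e-06). The difference was smaller for Krt19, a keratin of simple epithelia, at 2552, 1531 and 1204 against 683, 522 and 891 CPM (1.24 ± 0.29, adjusted p = 0.00753). Polycystic kidney and cilium genes of bile duct cells were higher, namely Bicc1 (7.32 ± 1.21, or 9.86 without the 2), Pkhd1 (3.07 ± 0.85, called under 11 of 15 alternatives and not without the 2) and Dcdc2a (7.73 ± 1.16, or 11.05 without the 2). The 1 member lower was Cftr, the chloride channel that is mutated in cystic fibrosis, at 30.8, 30.7 and 13.4 CPM in the gallbladder and 265, 108 and 221 CPM in the intestine (-3.08 ± 0.46, adjusted p = 0.000368), and it was lower in every gallbladder library than in any intestinal library.

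Of 15 tested transcription factors of the biliary lineage, 9 were higher, 4 lower and 2 did not pass (9 and 3 without the 2 libraries). Sox17, the endoderm factor that separates biliary from pancreatic fate (ENSMUSG00000025902, chromosome 1, 4490931 to 4497354), differed by 7.37 ± 0.99, or 9.38 without the 2 (adjusted p = 0.000339). Onecut1 stood at 49.2, 100.2 and 84.6 against 0.549, 0.109 and 1.01 CPM, and its relative Onecut2 was present in both organs, at 1297, 1758 and 1815 against 288, 256 and 318 CPM (2.43 ± 0.23). Hes1, the transcription factor induced by Notch, had 461, 176 and 633 and 39.4, 14.9 and 38.3 CPM (3.80 ± 0.46, adjusted p = 9.96e-05). The forkhead factors split. Foxa2 was higher in the gallbladder (24.7, 26.7 and 24.1 against 1.83, 0.517 and 1.59 CPM, 4.23 ± 0.96), whereas Foxa1 was at 1.17, 0 and 0 against 37.4, 30.4 and 18.4 CPM and Foxa3 at 1.19, 0.484 and 0 against 24, 42.5 and 14.3 CPM, both called lower. The Foxa1 call held under 9 of 15 alternatives. The lower count fell to 2 without gallbladder library 2 or 3, or without intestinal library 1 or 3. Tbx3, a T-box factor placed in the list for its role in liver bud growth, was also lower, at 11.1, 0.387 and 0.344 against 198, 252 and 151 CPM (-5.86 ± 1.19, adjusted p = 0.00611, and -9.34 without the 2 libraries). Sox9 did not pass, at 136, 90.5 and 112 against 252, 68.8 and 113 CPM.

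Of 18 intestinal transcription factors, 11 were lower in the gallbladder, 2 higher and 5 did not pass (median -3.03, and 10 lower and 2 higher without the 2 libraries). Gata4, the zinc finger factor of proximal intestine, fell from 130.2, 104 and 131 CPM in the intestine to 6.83, 0.226 and 0.0573 CPM in the gallbladder, a call that held under 13 of 14 alternatives. Cdx1, a caudal-type homeobox factor, stood at 31, 30.3 and 33.9 and 1.7, 0.0645 and 0.0286 CPM. Both, like Cdx2, kept their highest gallbladder value in library 1. The nuclear receptor gene Hnf4a was only partly lower, at 369, 212 and 133 against 1353, 967 and 1346 CPM (-2.48 ± 0.27, adjusted p = 3.23e-05), and Hnf4g differed by -3.14 ± 0.51. Vdr, the vitamin D receptor, was lower by a similar size (84.8, 96.5 and 75.9 against 711, 520.2 and 612 CPM, -2.93 ± 0.26), and Maf stood at 8.42, 1.19 and 0.63 against 131, 128 and 139 CPM. The 2 members higher in the gallbladder were Gata5 (213, 164 and 222 against 117, 91.9 and 83.9 CPM, 0.96 ± 0.21, adjusted p = 0.00573) and Nr5a2, the nuclear receptor LRH-1 (203, 184 and 168 against 63.7, 33.1 and 102 CPM, 1.44 ± 0.26, adjusted p = 0.00146). Pdx1, the factor of pancreas and duodenum, was read in both organs, at 44.9, 28.6 and 31.6 and 45.3, 71.9 and 56.3 CPM, and did not pass. Of 13 tested Hox genes, which record position along the body axis, 7 were lower and 0 higher (5 and 0 without the 2 libraries), all at low levels, and 2 to 8 lower over the alternatives, with 4 without gallbladder library 2. Hoxa3 had 0.0618, 0.0322 and 0 and 2.84, 1.52 and 1.32 CPM. Hoxb4 had 0 counts in the gallbladder and 61 in the intestine, at least 24.8-fold lower against a floor of 3 counts over the gallbladder group, a bound that covers counting error only.

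**Figure D2:**
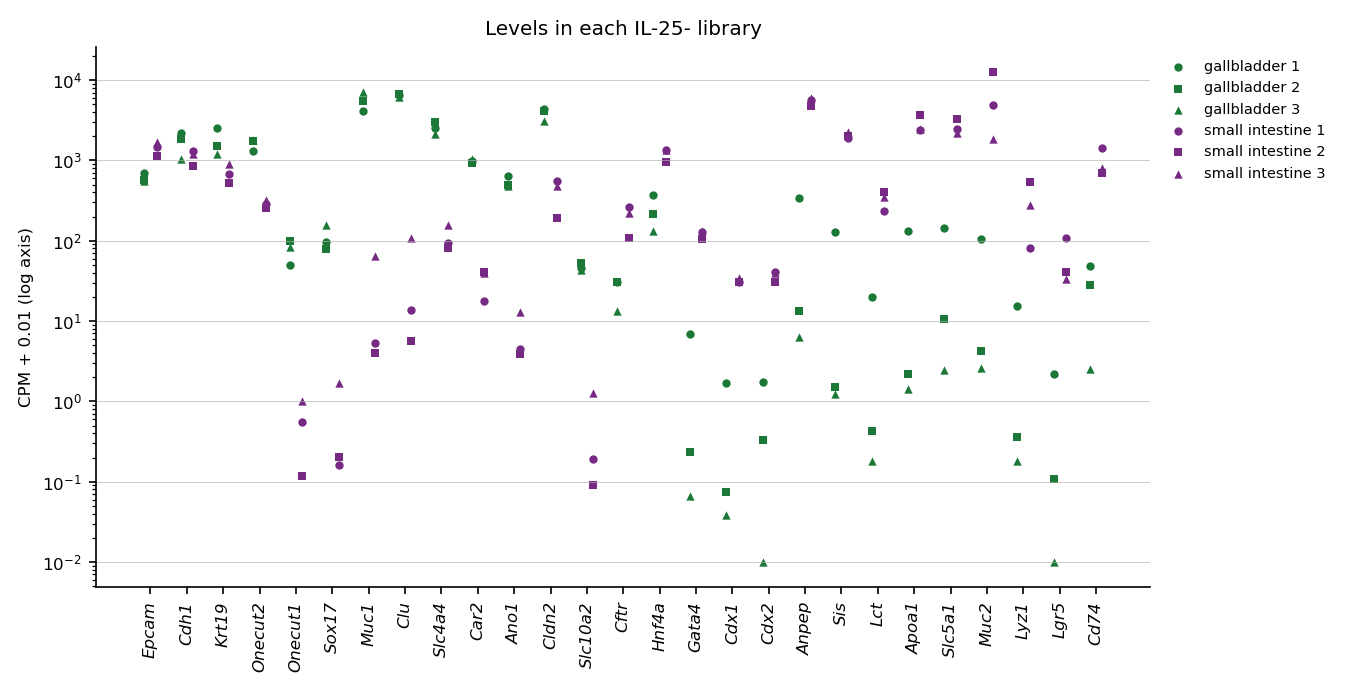
CPM + 0.01 on a log axis for 27 list members, 1 point per library (green gallbladder, purple small intestine, with the marker shape giving the replicate). Gallbladder library 1 lies above libraries 2 and 3 for Sis, Lct, Apoa1 and Cdx1, and intestinal library 3 lies above libraries 1 and 2 for Muc1, Clu and Sox17, while Car2, Onecut2 and Slc4a4 differ in every library.

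All 20 brush border digestive enzyme genes were lower in the gallbladder, with all libraries and without the 2. The median was -5.76 with all libraries and -10.14 without them. With the IL-25- libraries fitted alone 10 of the 20 were called, and 8 were called under every alternative. Sis, the sucrase-isomaltase of starch and sucrose digestion (ENSMUSG00000027790, chromosome 3, 72888557 to 72967863), stood at 1892, 2025 and 2233 CPM in the intestine and 127, 1.48 and 1.23 CPM in the gallbladder. The log2 fold change was -5.77 ± 1.70 (adjusted p = 0.0357) with all libraries and -10.57 without the 2, and the call held under 7 of 15 alternatives. Lct, the lactase, had 233, 401 and 348 and 19.6, 0.419 and 0.172 CPM. Anpep, an aminopeptidase, had 5589, 4731 and 6015 and 338, 13.2 and 6.36 CPM (-5.70 ± 1.50, or -9.14 without the 2), and Alpi, the intestinal alkaline phosphatase, had 751, 1585 and 919 and 47.7, 0.903 and 0.573 CPM (-6.30 ± 1.59, called under 13 of 15 alternatives, or -10.76). In gallbladder libraries 2 and 3 these 4 genes were near 0, and in library 1 they were at a few percent of the intestinal level. Mgam, the maltase-glucoamylase, was not near 0, with 255, 258 and 219 CPM in the gallbladder and 1147, 1264 and 1152 CPM in the intestine (-2.40 ± 0.29, adjusted p = 8.56e-05), alike in all 3 gallbladder libraries. Mgam was not the only such gene. The highest share of the mean intestinal level among the 20 was 30.7, 31.1 and 32.8% in gallbladder libraries 1, 2 and 3, above that of Mgam.

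Of 13 tested structural genes of the brush border, 10 were lower, 2 higher (13% were higher over all genes tested) and 1 did not pass. Their median was -3.49, and how it differs from that of the enzymes was not tested. Vil1, the actin bundler villin, stood at 598, 347 and 277 against 1775, 1822 and 1824 CPM (-2.28 ± 0.24, adjusted p = 2.48e-05). Myo1a, the motor that ties microvillar actin to the membrane, stood at 393, 303 and 274 against 1137, 1189 and 1176 CPM (-1.97 ± 0.19). The microvillar cadherins were further down, Cdhr5 at 136, 50.0 and 54.7 against 1449.6, 1839.8 and 1349 CPM (-4.42 ± 0.38, or -5.04 without the 2) and Cdhr2 at 32.3, 2.32 and 1.15 against 483, 897 and 594 CPM (-6.02 ± 1.14, or -8.79 without the 2 libraries). The 2 higher members were Ezr (ezrin, 1.02 ± 0.24, called under 14 of 15 alternatives) and Eps8 (0.94 ± 0.24, called under 13 of 15 alternatives), which link and cap actin. Neither was called without the 2 libraries (0 higher and 10 lower), and 1 of them was lost without intestinal library 1.

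Of 26 nutrient and mineral transporters, 16 were lower, 2 higher and 8 did not pass (15 lower and 0 higher without the 2 libraries). Slc5a1, the sodium-glucose cotransporter SGLT1 (ENSMUSG00000011034, chromosome 5, 33104219 to 33162870), had 143, 10.5 and 2.46 against 2432, 3304 and 2172 CPM (-5.89 ± 1.32, adjusted p = 0.0106, and -8.96 without the 2). The amino acid carriers Slc6a19 (-5.64 ± 0.95, or -7.61 without the 2) and Slc7a8 (-4.20 ± 0.58) were lower. Slc7a8 was measurable in each gallbladder library, at 18.9, 7.58 and 8.19 CPM. The lysosomal amino acid exporter Slc36a1 stood at 28.2, 20.1 and 17.2 against 175, 199 and 179 CPM (-3.20 ± 0.30, adjusted p = 1.24e-05). The facilitative glucose transporters Slc2a2 (173, 167 and 219 against 100.1, 104 and 105 CPM, 0.78 ± 0.26, adjusted p = 0.0478) and Slc2a1 (0.82 ± 0.21, called under 14 of 15 alternatives) were the 2 called higher, Slc2a2 under 5 of 15 alternatives only. The higher count was 1 without intestinal library 1 or 3 and 6 with limma-voom.

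In fat absorption and lipoprotein assembly 17 of 21 genes were lower and 0 higher (19 and 0 without the 2 libraries). Apoa1, the main apolipoprotein of high-density lipoprotein, had 134, 2.19 and 1.4 against 2384, 3689 and 2439 CPM (-6.19 ± 1.64, or -10.84 without the 2), and Fabp2, a fatty acid carrier of enterocytes, had 63.6, 0.741 and 1.17 against 539.6, 1434 and 1109 CPM, called under 8 of 15 alternatives. Apob, the backbone of chylomicrons, was read above 17 CPM in each gallbladder library, at 98.3, 20.8 and 17.6 against 1279, 1495 and 1414 CPM (-5.11 ± 0.77, or -6.26 without the 2, adjusted p = 0.000908).

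Bile acid genes went both ways, with 5 of 14 higher, 3 lower and 6 not passing (4 and 3 without the 2 libraries). Slc10a2, the apical sodium-dependent bile acid importer ASBT (ENSMUSG00000023073, chromosome 8, 5083219 to 5105351), stood at 46.1, 52.5 and 43.2 CPM in the gallbladder and 0.183, 0.0816 and 1.27 CPM in the proximal intestine (6.50 ± 1.08, or 8.44 without the 2, adjusted p = 0.000862). The basolateral exporter of the same route is a dimer of OSTα and OSTβ. Both of its genes were lower in the gallbladder, Slc51a at 5.33, 1.55 and 0.487 against 99.4, 59.9 and 79 CPM (-5.15 ± 0.68, or -6.38 without the 2, adjusted p = 0.000162) and Slc51b at 0.664, 0 and 0 against 13, 12.7 and 10.1 CPM (-5.82 ± 1.28). Among the ABC exporters Abcc2 (MRP2) was lower, at 30.4, 5.42 and 1.49 against 406, 988 and 521 CPM (-5.93 ± 1.07, or -7.86 without the 2), and Abcc3 (MRP3, 394, 483 and 304 against 145, 185 and 153 CPM, 1.15 ± 0.20) and Abcc4 (MRP4, 41.2, 67.1 and 37.1 against 11.7, 6.63 and 6.62 CPM, 2.45 ± 0.57) were higher. Nr0b2, the repressor SHP that bile acids induce, had 6.8, 12.1 and 7.39 against 0, 0.0272 and 0.0794 CPM (7.70 ± 1.40, or 8.96 without the 2, adjusted p = 0.00147). The bile acid receptor gene Nr1h4 (FXR) stood at 72.2, 62.8 and 50.8 against 54.1, 27.2 and 48.4 CPM and did not pass (95% interval of the log2 fold change -0.74 to 1.64).

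Ion and water transport was likewise mixed, with 11 of 34 genes higher, 8 lower and 15 not passing (9 and 9 without the 2 libraries). Slc4a4, the sodium-bicarbonate cotransporter that loads bicarbonate across the basal membrane (ENSMUSG00000060961, chromosome 5, 88886818 to 89239653), stood at 2561, 2971 and 2100.5 against 93.4, 80.1 and 158 CPM (4.45 ± 0.25, adjusted p = 5.07e-07). The water channel gene Aqp1 had 1286, 1452 and 1213 against 169, 109.7 and 169 CPM (3.07 ± 0.37). Carbonic anhydrases split: cytosolic Car2 (991, 932 and 1052 against 17.8, 41.3 and 39.6 CPM, 4.80 ± 0.54) and membrane-bound Car9 (748, 695 and 1206 against 123, 60.9 and 135 CPM, 3.05 ± 0.42) were higher, and membrane-bound Car4 was lower (158, 96.6 and 92.9 against 508, 284 and 542 CPM, -2.01 ± 0.36). Beside the lower Cftr, the calcium-activated chloride channel Ano1 had 632, 493 and 479 against 4.52, 3.89 and 12.8 CPM (6.19 ± 0.75, or 6.81 without the 2, adjusted p = 0.000216) and the anion transporter Slc26a9 had 92, 86.9 and 31 against 0.0915, 0 and 0.900 CPM. Slc12a2, the basolateral chloride importer NKCC1, was lower (61.6, 90.9 and 37.8 against 485, 124 and 277 CPM, -2.29 ± 0.37), as was Gucy2c, the receptor for guanylin (7.12, 0.322 and 0.229 against 163, 127 and 154 CPM). The sodium pump beta subunit gene Atp1b1 stood at 3018, 3398 and 1561 against 2564, 1963 and 2679 CPM and did not pass.

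Of 12 mucin and trefoil genes, 4 were higher and 3 lower, and the same counts were found without the 2 libraries. Muc2, the gel-forming mucin of goblet cells (ENSMUSG00000025515, chromosome 7, 141690340 to 141754693), had 105, 4.22 and 2.61 CPM in the gallbladder and 4912, 12774 and 1837 CPM in the intestine (-7.75 ± 1.75, or -11.50 without the 2). The membrane mucin genes Muc13 (129, 102 and 4.21 against 2488, 2194 and 2279.8 CPM, -5.08 ± 0.98) and Muc4 (1719.6, 2154 and 2987 against 627, 329.8 and 499 CPM, 2.21 ± 0.47) were lower and higher. Muc20 had 59, 113 and 55.9 against 5.86, 2.99 and 8.79 CPM, and the trefoil peptide gene Tff2 had 30.6, 27.2 and 17.9 against 0.244, 0.0816 and 1.11 CPM (5.67 ± 0.97, or 7.06 without the 2).

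Among cytoskeletal and junction genes, Krt18 was higher (956, 673 and 624 against 175, 214 and 107 CPM, 2.04 ± 0.30) and Krt20, a keratin of mature enterocytes, lower (69.7, 10.3 and 13.9 against 799, 1636 and 816 CPM, -5.33 ± 0.73, or -6.74 without the 2), with 3 of 10 keratins higher and 1 lower (2 and 1 without the 2 libraries). Of 18 claudin and tight junction genes, 6 were higher and 2 lower (5 and 1 without the 2 libraries, and 1 lower without any 1 library other than gallbladder library 1). Cldn2, which forms pores for cations and water (ENSMUSG00000047230, chromosome X, 139800828 to 139811386), had 4332, 4107 and 3074 against 551, 189 and 481 CPM (3.19 ± 0.43, adjusted p = 0.000222). Cldn15, the pore-forming claudin of the intestine, had 31.8, 1.55 and 0.286 against 609.7, 438 and 579 CPM (-5.77 ± 1.43, or -9.28). The scaffold gene Tjp1 (ZO-1) was higher at 1785, 1060.1 and 1328 against 266, 259.6 and 289.6 CPM (2.26 ± 0.20), and so was F11r, the junctional adhesion molecule JAM-A (1.93 ± 0.32). Of 16 genes shared by all epithelia 7 were higher and 2 lower (6 and 1 without the 2, 1 lower without any 1 library other than gallbladder library 1, and 11 higher with limma-voom), and Epcam itself was lower in the gallbladder (703, 573 and 554 against 1485, 1141 and 1701 CPM, -1.32 ± 0.16, adjusted p = 9.81e-05).

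Of 30 tested genes of mucosal defence, 11 were higher, 5 lower and 14 did not pass (10 and 6 higher and lower without the 2 libraries). The lower count ran from 2 to 6 over the alternatives, with 3 without gallbladder library 2, 2 without gallbladder library 3 and 3 without intestinal library 1. Several of them varied between the gallbladder libraries, with library 2 highest. The summed CPM of the list was 5066, 12096 and 3795 in the gallbladder, and that of myeloid genes was 60.8, 253 and 48.6, of which Itgam, an integrin of myeloid cells, made up 10.8, 230.2 and 13.2 CPM. Lyz2 and Adgre1, which mark macrophages, were each at most 0.290 CPM there. Cd68 of the same list was called higher in the gallbladder, though not under every alternative, and its levels are given further below. The part of myeloid RNA in the result was not tested. C3, the central complement component, stood at 863, 3572 and 203 CPM against 12.7, 1.44 and 22.2 CPM (6.91 ± 1.37, or 7.99 without the 2, adjusted p = 0.00583). Lactoferrin (Ltf) had 24.5, 451 and 15.9 against 3.08, 1.28 and 2.49 CPM (6.02 ± 1.36, called under 12 of 14 alternatives). The neutrophil chemokine gene Cxcl5 and the siderophore-binding lipocalin gene Lcn2 had 4.34, 669 and 0.601 and 16.2, 679.7 and 2.46 CPM in the gallbladder, with at most 0.272 and 0.915 CPM in the intestine. Neither passed the test (adjusted p = 0.0698 and 0.0653). Cxcl16, a membrane-bound chemokine, was steadier, at 225, 193 and 135 against 17.9, 30.4 and 10.6 CPM (3.04 ± 0.48). On the intestinal side stood Reg3b, an antibacterial lectin (56.8, 4.87 and 4.21 against 1296, 292 and 959.7 CPM, -5.38 ± 1.32, or -7.41 without the 2, called under 14 of 15 alternatives), and Ccl25, which draws lymphocytes to the gut (29.4, 2.84 and 4.55 against 369, 267 and 493 CPM, -5.06 ± 0.87, or -6.42 without the 2). Pigr, the carrier of IgA into bile and gut lumen, was abundant in both organs, at 1797, 3179 and 1406 and 3202, 2292 and 3566 CPM, and did not pass.

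All 7 tested genes of MHC class II, which present antigen, were lower in the gallbladder, with all libraries and without the 2, and under each of the 15 alternatives. Cd74, the invariant chain (ENSMUSG00000024610, chromosome 18, 60803848 to 60812652), had 47.8, 28 and 2.49 against 1417, 704 and 807 CPM (-5.39 ± 0.86, or -6.25 without the 2, adjusted p = 0.00145). H2-Ab1, a beta chain, had 7.45, 4.77 and 0.0859 against 201, 131 and 144 CPM (-5.44 ± 1.17, or -6.26 without the 2), and Ciita, the activator of these genes, had 2.24, 0.129 and 0 against 36.9, 14.6 and 26.7 CPM (-5.15 ± 1.35, or -8.66 without the 2). The summed CPM of the list ran from 4.35 to 64.4 in the gallbladder and from 986 to 1802 in the intestine. B2m, the light chain of MHC class I, was lower by less (309, 556 and 511 against 1235, 1245 and 1219.6 CPM, -1.51 ± 0.26). Of 22 interferon response genes 5 were lower and 0 higher (5 and 1 without the 2 libraries, and 3 lower without intestinal library 2), among them Igtp (-2.76 ± 0.36) and the nucleic acid sensor Zbp1 (-5.05 ± 0.88).

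**Figure D3:**
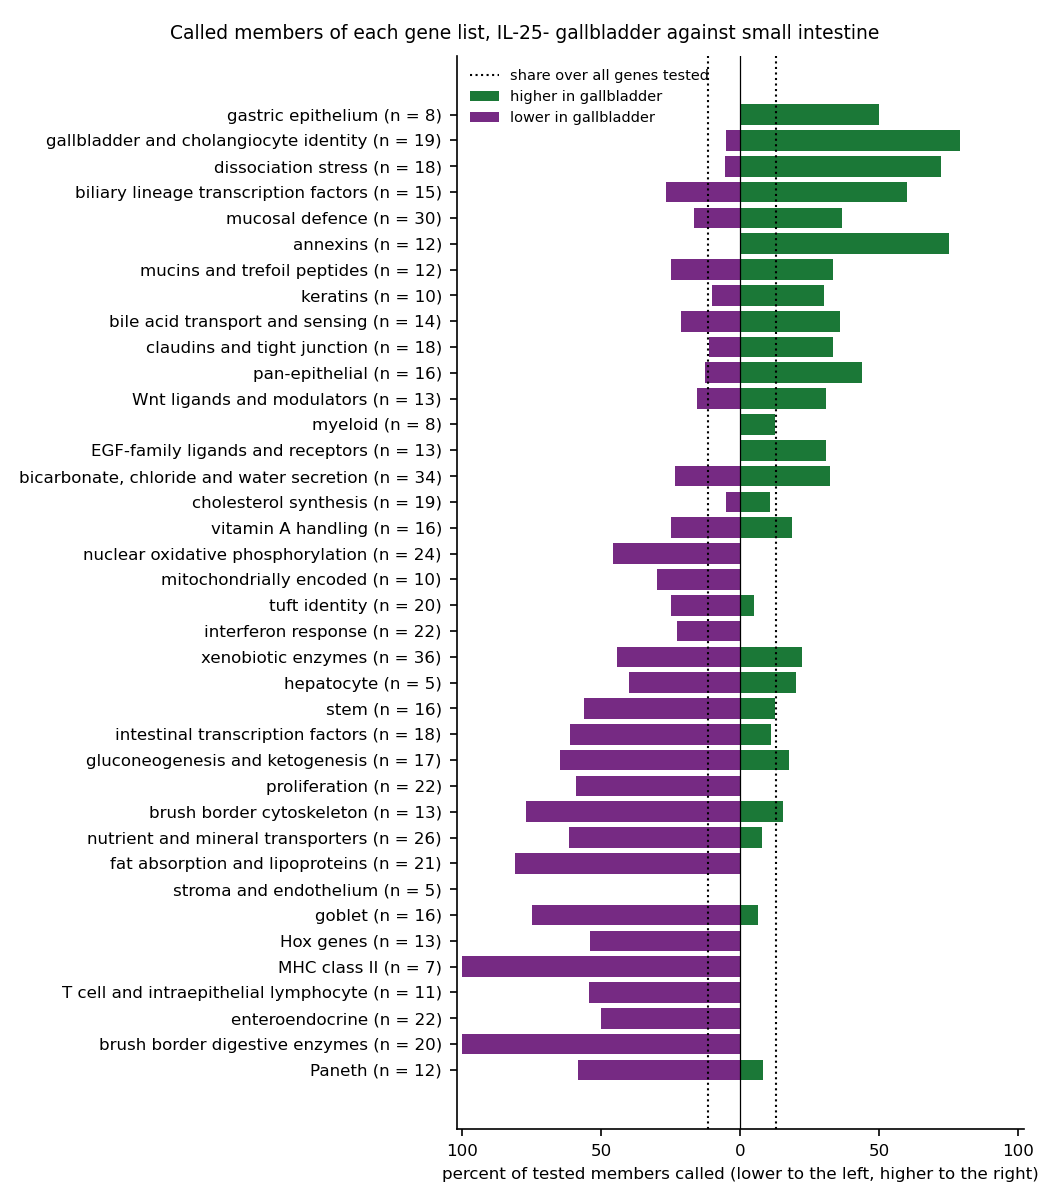
Percent of the tested members of each list called higher (right, green) or lower (left, purple) in the gallbladder, for the 38 lists with at least 5 tested members, ordered by median log2 fold change; dotted lines give the shares over all genes tested, 13% higher and 11.7% lower. Brush border enzymes and MHC class II reach 100% lower, and annexins and gallbladder identity have the longest bars to the right.

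The secretory lineages of the intestine were low in the gallbladder. Of 16 goblet genes 12 were lower and 1 higher, of 12 Paneth genes 7 and 1, and of 22 enteroendocrine genes 11 and 0. Without the 2 libraries the counts were 11 and 1, 8 and 1, and 19 and 0. The goblet count lower was 7 without gallbladder library 2. The Paneth count fell to 2 without intestinal library 2 and to 3 without gallbladder library 2, gallbladder library 3 or intestinal library 3. The enteroendocrine count rose to 22 without gallbladder library 1 and was 6 and 7 without intestinal libraries 2 and 3, with a range of 4 to 22 over the alternatives. Intestinal library 2 held the most goblet and Paneth RNA. Clca1, a secreted goblet cell protein, had 3766, 15103 and 1025 CPM in the intestine and 58.6, 5.13 and 5.44 CPM in the gallbladder (-8.49 ± 2.01, or -10.95 without the 2, adjusted p = 0.014), and Ang4, a Paneth cell ribonuclease, had 428, 1154 and 196 and 10.3, 0.226 and 0.172 CPM (-7.64 ± 1.79, or -12.08 without the 2). Chga, the granin of endocrine granules, had 12.7, 0.193 and 0.0859 against 154, 218 and 202 CPM (-5.65 ± 1.55, or -10.47). Chgb, the granin with the highest level per length among these, did not pass with all libraries (266, 2.77 and 2.29 against 4196, 7045 and 4733 CPM, adjusted p = 0.0704) and passed without the 2. The members higher in the gallbladder were the secretory stress factor gene Creb3l1 (132, 194 and 255 against 134, 86.8 and 88.5 CPM, 0.87 ± 0.27), called under 10 of 15 alternatives and not without gallbladder library 3, intestinal library 2 or intestinal library 3, and the protease gene Habp2 (97.7, 132 and 94.6 against 9.0, 13.7 and 6.59 CPM, 3.32 ± 0.73).

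Crypt genes were low as well. Of 16 stem cell genes 9 were lower and 2 higher (7 and 1 without the 2 libraries), against 11.7% lower and 13% higher over all genes tested. Lgr5, the receptor that marks intestinal stem cells (ENSMUSG00000020140, chromosome 10, 115450311 to 115587780), had 2.21, 0.0967 and 0 against 108, 40.9 and 33.2 CPM (-6.33 ± 1.17, or -10.55 without the 2, adjusted p = 0.00335), and the Wnt target Axin2 had 7.37, 1.61 and 0.0573 against 281, 97 and 106 CPM (-5.87 ± 1.10, or -7.92). The 2 higher members were Bmi1, a polycomb gene (42.4, 32.9 and 70.9 against 28.6, 15.9 and 18.5 CPM, 1.19 ± 0.37), and Clu, the secreted chaperone clusterin, listed here for its role in revival stem cells (ENSMUSG00000022037, chromosome 14, 65968483 to 65981547). Clu stood at 6524, 6656 and 6199 CPM in the gallbladder and 13.8, 5.65 and 108 CPM in the intestine (7.27 ± 1.11, adjusted p = 0.00122, and 9.38 without the 2). Bmi1 was called under 8 of 15 alternatives, and not without the 2, nor without gallbladder library 3, intestinal library 2 or intestinal library 3. Proliferation genes were lower in 13 of 22 cases and higher in 0 (7 and 0 without the 2). The lower count was 6 to 21 over the alternatives, with 6 without gallbladder library 2 and 8 without gallbladder library 3, intestinal library 1 or intestinal library 3. Lower members were Mki67 (52.4, 21 and 7.27 against 457, 178 and 538 CPM, -3.97 ± 0.92) and the topoisomerase gene Top2a (26.9, 13.5 and 8.73 against 243, 105 and 240.5 CPM, -3.67 ± 0.51).

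Most growth factor genes did not pass, against shares of 13% higher and 11.7% lower over all genes. Of 13 Wnt ligands and modulators 4 were higher and 2 lower, and of 13 EGF-family genes 4 were higher and 0 lower (2 and 0, and 3 and 0, without the 2 libraries). The Wnt counts ran from 2 to 4 higher and 0 to 2 lower over the alternatives, with 2 higher without intestinal library 1 or 2 and at most 1 lower without any of the 6 libraries. Wnt7b had 91.2, 67.8 and 35.6 against 0.0305, 0 and 0.98 CPM (7.50 ± 1.21, or 11.39 without the 2, adjusted p = 0.00173) and Wnt5a, a ligand of the β-catenin-independent branch, had 35.4, 31.1 and 18.9 against 1.04, 0.353 and 0.662 CPM (5.29 ± 0.67). Wnt4 and Wnt7a were also called (4.04 ± 1.10 and 5.77 ± 1.52), each under 11 of 15 alternatives. Hbegf, a membrane-anchored EGF receptor ligand, had 633, 511 and 443 against 45.7, 50.4 and 40.6 CPM (3.41 ± 0.40, adjusted p = 7.51e-05), and Tgfa had 193, 120.5 and 214 against 46.7, 38.9 and 37 CPM (2.04 ± 0.30). The receptor gene Erbb4 had 21.4, 7.16 and 10.2 against 0, 0 and 0.318 CPM, whereas Egfr (84.5, 92.7 and 78.7 against 70.5, 62.3 and 47.3 CPM) and Erbb2 (148, 219 and 109 against 171, 107 and 156 CPM) did not pass. Annexins, which bind membranes in the presence of calcium, were higher in 9 of 12 cases and lower in 0, in both fits, with 8 or 9 higher and 0 or 1 lower over the alternatives. Anxa5 had 466, 388 and 262 against 11.3, 18.7 and 27.7 CPM (4.15 ± 0.35), Anxa13 had 651, 548 and 555 against 108, 123 and 130.1 CPM (2.18 ± 0.23) and Anxa10 had 9.59, 13.5 and 19 against 0.0305, 0 and 0.132 CPM.

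Metabolic genes were split by family. Over all genes tested, 13% were higher and 11.7% lower. Of 36 xenobiotic enzymes 8 were higher, 16 lower and 12 did not pass (8 and 14 without the 2 libraries). The cytochrome P450 gene Cyp2s1 stood at 1419, 1642 and 2840.4 against 165, 216 and 249.9 CPM (3.18 ± 0.50, adjusted p = 0.000779), and Cyp4f14, a fatty acid hydroxylase, at 18.1, 4.29 and 1.43 against 265, 323 and 326 CPM (-5.44 ± 0.71, or -6.83 without the 2). The glutathione transferases Gsta4 (616, 621 and 487 against 24.5, 118 and 42.6 CPM, 3.01 ± 0.60) and Gstm3 (25.9, 19.3 and 9.79 against 270.1, 269 and 262 CPM, -4.01 ± 0.38) pointed in opposite directions, as did the retinoid-related dehydrogenases Aldh1a1 (1.97 ± 0.42) and Adh1 (-4.32 ± 0.56). In gluconeogenesis and ketogenesis 11 of 17 genes were lower and 3 higher (10 and 2 without the 2). Cpt1a, the gate of mitochondrial fatty acid oxidation, had 738, 744 and 628 against 241, 155 and 284 CPM (1.57 ± 0.17). The triokinase gene Tkfc (-4.52 ± 0.43) and Fbp2, a fructose bisphosphatase (-2.08 ± 0.19), were lower. In vitamin A handling 4 of 16 genes were lower and 3 higher (4 and 1 without the 2), with the retinol carrier gene Rbp2 at 98.9, 1.16 and 1.37 against 1608, 1742 and 1825 CPM (-10.41 without the 2 libraries). The vitamin A count higher was 1 without gallbladder library 3 or any 1 intestinal library. The lower count was 2 without intestinal library 2. Of 19 cholesterol synthesis genes 2 were higher and 1 lower, both under the shares over all genes, and 0 were called without the 2 libraries. The cholesterol count higher was 1 without gallbladder library 3 or any 1 intestinal library, and the lower count was 0 without gallbladder library 1, intestinal library 1 or intestinal library 3.

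Nuclear genes of oxidative phosphorylation were lower in 11 of 24 cases and higher in 0 (5 and 0 without the 2 libraries), by small amounts (median -0.77). The lower count ran from 3 to 20 over the alternatives, with 6 without gallbladder library 2 or 3 and 3 without intestinal library 3. One member was Uqcrc1, a core subunit of complex III, at 121, 116 and 60.2 against 268, 195 and 309 CPM (-1.49 ± 0.21). The share of counts from mitochondrially encoded genes was 11.2, 14.2 and 25% in the gallbladder and 26.6, 34.9 and 27.1% in the intestine. It holds almost nothing from mt-Atp6, mt-Atp8, mt-Co2, mt-Co3 and mt-Nd4l. These had at most 3 counts in any of these libraries and were not tested, so the share is a partial one. The means of 16.8% ± 7.26 and 29.5% ± 4.61 (SD, n = 3) differed by -12.7 percentage points (exact permutation test, two-sided, p = 0.1, the smallest that 3 against 3 libraries allow), and by -11.1 points without the 2 libraries. Of 10 tested mitochondrially encoded genes 3 were called lower, and without the 2 libraries 0 were. The count was 0 without gallbladder library 1, gallbladder library 2 or intestinal library 2, 1 without intestinal library 3 and 8 without gallbladder library 3.

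Of 18 genes that dissociation of tissue can induce, immediate early and heat shock genes among them, 13 were higher in the gallbladder and 1 lower, in both fits. Egr1 had 6544, 5319 and 7678 against 781, 478 and 411 CPM (3.49 ± 0.27, adjusted p = 3.77e-06) and Zfp36, which encodes the mRNA-decay factor tristetraprolin, had 8083, 7939 and 6715 against 739, 725 and 655 CPM (3.31 ± 0.21, adjusted p = 1.03e-06). Dusp1, a phosphatase of MAP kinases, had 4127, 2881 and 8459 against 287, 388 and 207 CPM. The summed CPM of the list ran from 24065 to 30995 in the gallbladder and from 2444 to 3487 in the intestine. The heat shock genes Hspa1a, Hspa1b and Dnajb1 did not pass, and Klf4, a factor of mature gut epithelium, was lower (-1.38 ± 0.41, called under 10 of 15 alternatives and not without gallbladder library 1, gallbladder library 2 or intestinal library 2). Hes1, Hbegf and Cxcl16 were higher in the same libraries, and the part of the list in those results was not tested.

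By level per kilobase of exons, the nuclear genes highest in the gallbladder were Dmbt1 (6714 CPM per kb), Cd24a (2689.5), Muc1 (2374), Zfp36 (2184), Clu (1879.5), Dusp1, Egr1 and Cldn2 (1154). Dmbt1, a scavenger receptor protein secreted onto mucosa (ENSMUSG00000047517, chromosome 7, 131032053 to 131121630), had 45933, 63561 and 32642 CPM there, against 3643, 1456 and 5323 CPM in the intestine (3.71 ± 0.59, adjusted p = 0.000917). In the intestine the highest per length were Lypd8 (5194 CPM per kb), Apoa1 (2296), Sst (2079.9), Chgb (1943), Gip (1824), Rbp2 (1793), Clca1 (1756) and B2m (1434). Lypd8, a surface protein that keeps bacteria from the colonic epithelium, had 7247, 5505 and 7254 CPM, against 409.7, 14.1 and 21.6 CPM in the gallbladder (-5.66 ± 1.32, or -8.48 without the 2). Gip, Chgb and Sst, genes of enteroendocrine cells, were thus among the 8 highest in the intestine.

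The genes with the largest fitted increases were Gabrp, Angpt1, Cyp4a12a, Wdr72, Stc2, Atp6v0a4, Cys1, Ephx4, Rasgrp3, Fign, Cyp4x1 and Muc1, with log2 fold changes from 7.88 to 8.56. Gabrp, a GABA receptor subunit of secretory epithelia (ENSMUSG00000020159, chromosome 11, 33550781 to 33578959), had 305, 2608 and 399 against 2.32, 0.816 and 5.16 CPM, with gallbladder library 2 far above the others (8.56 ± 1.59, called under 14 of 15 alternatives, adjusted p = 0.00416). Atp6v0a4, a subunit of the proton pump found in acid-secreting kidney cells, had 72.5, 65.1 and 106 against 0.061, 0.0272 and 0.742 CPM (8.17 ± 1.09, adjusted p = 0.000253). Rasgrp3, an activator of Ras, had 229.7, 533 and 542 against 0.336, 0.19 and 4.4 CPM, and Cys1, a cilium protein linked to cystic kidneys, had 24.7, 28 and 71.8 against 0, 0.0816 and 0.344 CPM. Angpt1, the ligand of the vascular receptor TIE2, had 14.8, 21.2 and 25.2 CPM and, in the intestine, 0 counts in libraries 1 and 2. In each of these 12 genes intestinal library 3 held the highest intestinal level, and without the 2 libraries the log2 fold change was 9.80 for Gabrp and 10.82 for Atp6v0a4. The ranking is that of the fit with all libraries. Without the 2, the values of Wnt7b and Dcdc2a given above were larger than both, so the set and its order depend on those libraries.

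The genes with the largest fitted decreases were Ido1, Zg16, Clca1, Fer1l6, Clps, Muc2, Nts, Ang4, Kcnc1, Serpina1e, Capn9 and Scin, from -7.03 to -10.14. Ido1, which degrades tryptophan (ENSMUSG00000031551, chromosome 8, 24584136 to 24597009), had 0.232, 0.0967 and 0.0286 CPM in the gallbladder and 27.9, 332 and 5.53 CPM in the intestine (-10.14 ± 2.17, or -11.64 without the 2, called under 14 of 15 alternatives, adjusted p = 0.00809). Zg16, a lectin of goblet granules, had 4.8, 1.1 and 0.745 against 441, 4698 and 95 CPM (-9.94 ± 2.39, or -11.65 without the 2, called under 12 of 15 alternatives). Scin, the actin-severing protein scinderin, had 4.82, 0.129 and 0.172 against 174, 311 and 100.1 CPM, and Fer1l6, a membrane fusion protein of the ferlin family, had 1.61, 0.0322 and 0 against 87.5, 261 and 28.5 CPM. For each of the 12, intestinal library 2 was the highest, and gallbladder library 1 was the highest of its group. Their order is also that of the fit with all libraries. Without the 2, the decrease of Ang4 given above was larger than that of Ido1.

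**Figure D4:**
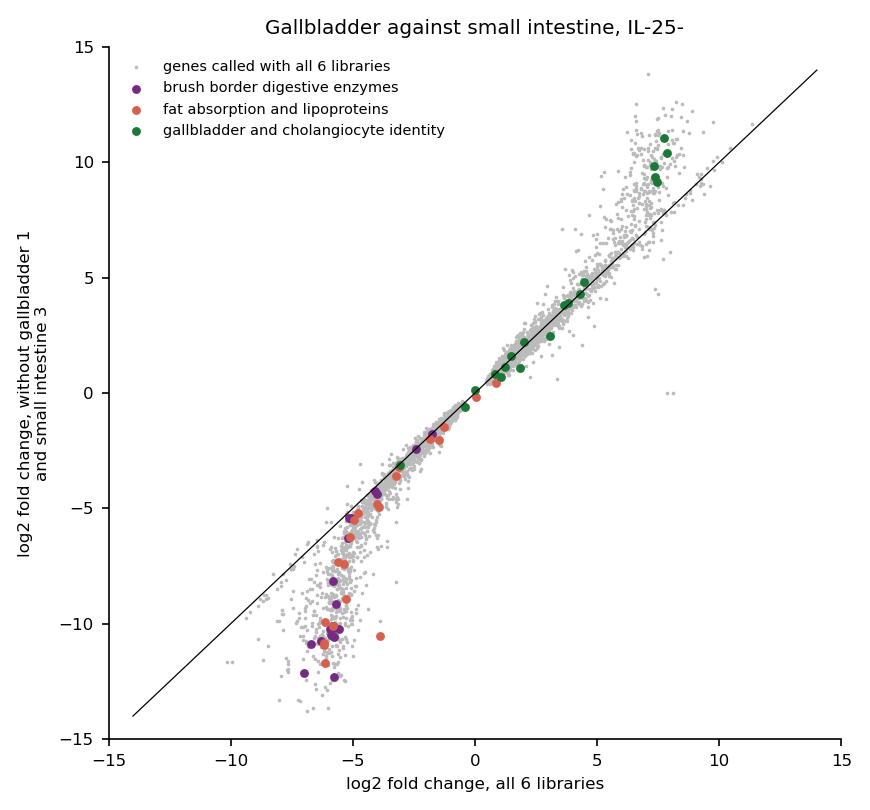
Log2 fold change of each called gene with all 6 libraries (horizontal axis) against the same without gallbladder library 1 and intestinal library 3 (vertical axis). Coloured points are all tested members of the brush border enzyme, fat absorption and gallbladder identity lists. Genes near -6 with all libraries mostly lie well below that without the 2, and 0 of the genes called in both fits change direction; fitted values of genes near 0 counts depend on the prior count.

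Other genes barely differed. Of 1124 genes with at least 100 CPM in both organs, 91 had a 95% interval of the log2 fold change inside -0.5 to 0.5. The 10 with the narrowest intervals were Copa and Copg1 of the COPI coat, the clathrin adaptor gene Ap2b1, the tankyrase gene Tnks2, the protease Tmprss2 and its inhibitor Spint2, and Flii, Syne2, Strbp and Ctdsp2. Copa, for example, had 448, 414 and 314 against 358, 325 and 359.8 CPM (0.07 ± 0.14, interval -0.24 to 0.37), and Spint2 had 152, 150.2 and 133 against 145, 121 and 148 CPM (-0.01 ± 0.15, interval -0.33 to 0.30).

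Markers of other cell types were also read, beside shares of 13% called higher and 11.7% called lower in the gallbladder over all genes tested. Of 11 tested T cell and intraepithelial lymphocyte genes, 6 were lower in the gallbladder and 0 higher (4 and 0 without the 2 libraries), with summed levels of 7.99 to 18.9 CPM in the gallbladder and 16.2 to 78.6 CPM in the intestine. Cd3e had 0.108, 0.0967 and 0.0286 against 0.244, 6.77 and 0.583 CPM, with intestinal library 2 highest. It was called under 6 of 13 alternatives. The T cell count was 1 without gallbladder library 2, gallbladder library 3 or intestinal library 2, 2 without intestinal library 3 and 1 with limma-voom. Of the list 0 genes were called under every alternative. B and plasma cell genes summed to at most 26.2 CPM and stroma and endothelium genes to at most 12.7 CPM in any library, with 0 members called in either list by edgeR when all libraries were fitted (Pax5, Cdh5, Des and Lum were among the members with 0 counts in all 6). At an unadjusted p under 0.05 the numbers were 1 and 3, with DESeq2 1 and 2 were called, and with limma-voom 0 and 3. Myeloid genes summed to 48.6 to 253 CPM in the gallbladder and 17.8 to 44.6 CPM in the intestine. Of 8 tested 1 was higher, a count near the share over all genes. It was Cd68 (31, 17.4 and 29.2 against 4.39, 3.37 and 5.91 CPM, 2.45 ± 0.71, called under 11 of 15 alternatives), while C1qa and Cd163 were at or near 0. Cd68 was not called without the 2, nor without gallbladder library 3, intestinal library 1 or intestinal library 2. Of 5 tested hepatocyte genes 1 was higher and 2 lower, and 1 and 0 without the 2 libraries. Alb (albumin) had 2.93, 2.22 and 2.49 CPM in the gallbladder and 0.0305, 1.55 and 1.4 CPM in the intestine, Fga and Ahsg were at or near 0, and Ttr, a carrier of thyroid hormone, was at 169, 298 and 413 against 6.83, 10.6 and 22 CPM (4.46 ± 0.64, or 5.29 without the 2). The lower members were Tat, a tyrosine aminotransferase (0.0772, 0 and 0 against 3.54, 5.57 and 0.874 CPM), and Cyp2e1 (0.201, 0.0322 and 0 against 4.64, 1.85 and 3.26 CPM), each called under 7 of 14 alternatives. Of the 2, 0 were called without any 1 of gallbladder libraries 2 and 3 and intestinal libraries 1 and 2. Among pancreatic acinar genes 9 of 13 had 0 counts in all libraries, Prss1, Cpa1 and Pnlip among them, and Ctrb1, a chymotrypsinogen, was at 316, 339 and 312 against 0.244, 0.326 and 5.22 CPM (7.37 ± 1.44, adjusted p = 0.00503, and 10.07 without the 2). Of 8 gastric genes 4 were higher and 0 lower, led by Ctse, an aspartic protease (1158, 1607 and 1962 against 4.27, 35.2 and 20.7 CPM, 6.14 ± 0.91), whereas Gkn1, Gkn2, Gif and Atp4b had 0 counts in all 6.

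The tuft cell list checks the gate. In the IL-25- libraries its 20 members reached medians of 0.750, 0.200 and 0.0799% of the IL-25+ gallbladder level, and of 0.896, 0.814 and 0.299% of the IL-25+ intestinal level. The highest member stood at 25.9, 15.1 and 9.47% in the gallbladder and at 2.84, 2.40 and 3.07% in the intestine. With all libraries 5 were lower in the gallbladder and 1 higher, and without the 2 libraries 17 were lower and 1 higher. The lower count was 14 without gallbladder library 1, 3 without gallbladder library 3, and 2 without gallbladder library 2, intestinal library 1 or intestinal library 2. The higher member was Gnat3, the taste G protein gustducin, at 6.97, 4.06 and 2.55 against 0.214, 0.245 and 0.0265 CPM (4.62 ± 0.75, or 3.73 without the 2, adjusted p = 0.000715). Kctd12 was lower in each fit (2.9, 1.81 and 0.544 against 14.7, 12.4 and 12.9 CPM, -3.06 ± 0.37).

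The tissue difference was then set beside that of IL-25+ cells, the fraction with red fluorescence. In those, 3938 genes (23.7%) were called, 1753 (10.5%) higher and 2185 (13.1%) lower in the gallbladder. Of the genes called in both gates, 1796 had the same direction and 180 the opposite one, and the 1796 are 43.8% of the IL-25- calls and 45.6% of the IL-25+ calls. The difference between the gates was tested as an interaction, which called 1536 genes (9.23%), and 926 of the 4099 IL-25- calls (22.6%) were among them. Cd24a showed the shift in a gallbladder marker: it was higher in IL-25- gallbladder than in IL-25- intestine, but in IL-25+ cells it stood at 5675 ± 2200.3 CPM in the gallbladder and 17977 ± 1112 CPM in the intestine (SD, n = 3; interaction 5.91 ± 0.44, adjusted p = 1.04e-05). Krt18 differed likewise (interaction 4.30 ± 0.42, adjusted p = 7.01e-05). The tissue difference of Muc1, Clu, Cldn2 and Ctse did not pass the interaction test.

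Among genes with at least 20 CPM in any of the 4 groups, those with the most negative interactions were low in IL-25- gallbladder and high in IL-25+ gallbladder. Fxyd6, a regulator of the sodium pump, had 0.711, 0.0322 and 0.43 against 8.24, 9.49 and 14.6 CPM in IL-25- cells and 38.3 ± 15.1 against 0.0925 ± 0.102 CPM in IL-25+ cells (interaction -13.00 ± 1.30, adjusted p = 8.24e-05). Casr, the calcium-sensing receptor, had 1.1, 0.161 and 0.115 against 3.33, 12.3 and 7.42 CPM in IL-25- cells and 253 ± 40.8 against 3.32 ± 2.8 CPM in IL-25+ cells (interaction -9.97 ± 1.42). Runx1t1, a corepressor, Spdef, a factor of goblet cells, Rab3b, a GTPase of secretory vesicles, and Tnfrsf8 (CD30) followed the same pattern, with interactions of -9.46, -9.28, -8.89 and -10.63. Tnfrsf8 had 0 counts in IL-25- gallbladder and 85 in IL-25- intestine, at least 34.5-fold lower against the floor of 3 counts over the group. The most positive interactions at that level were those of ccdc198, Pilrb2, Inf2, Hmox1, Cst6 and H2-Q7, from 6.79 to 8.29. Hmox1, the heme oxygenase, had 24, 25.4 and 21.2 against 2.14, 0.517 and 0.609 CPM in IL-25- cells and 8.14 ± 0.753 against 46.6 ± 13.4 CPM in IL-25+ cells, higher in the gallbladder among the former and lower among the latter.

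**Figure D5:**
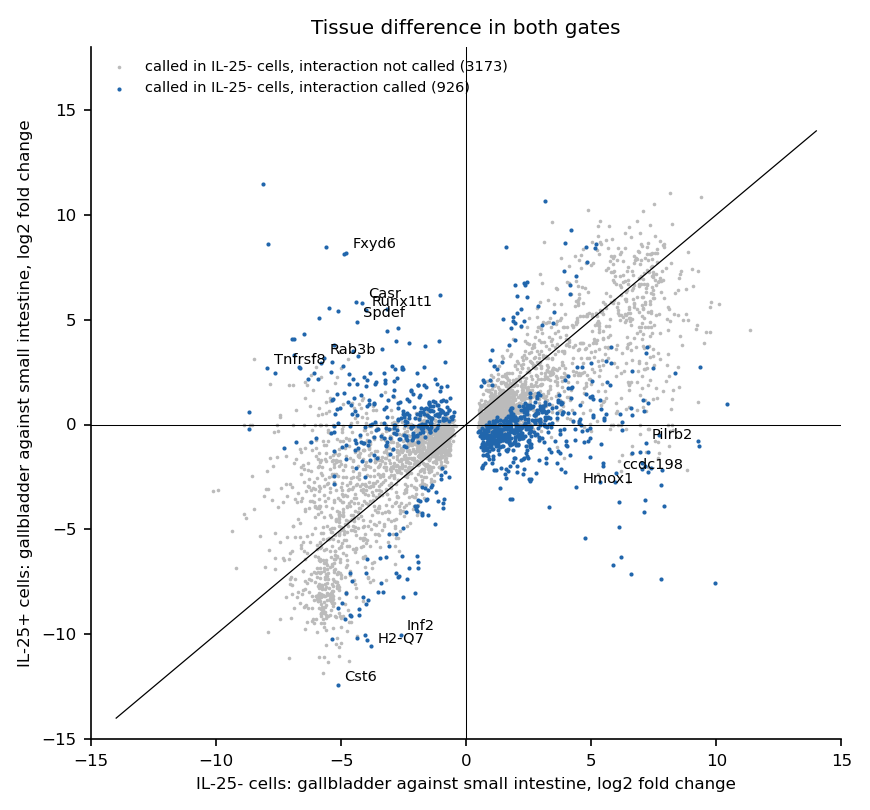
Log2 fold change of gallbladder over small intestine in IL-25- cells (horizontal axis) against that in IL-25+ cells (vertical axis) for the 4099 genes called in IL-25- cells, with the 926 whose interaction was called in blue and the line of equal differences drawn. The blue points away from the line include Fxyd6 and Casr at the upper left and Cst6 at the lower left.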

How the data were processed

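RNA of sorted EpCam+ cells was amplified with a NuGen kit and made into Nextera XT libraries, which do not mark strand, and 50 bp single-end reads were run, per the labels' protocols. The authors deposited raw read counts per Ensembl gene. Reads were aligned with STAR 2.7.2b to GRCm38, and DESeq2 1.26 is listed, per the submitters' processing notes; the counter and its strand setting are not given in the sources used here. Of 43432 genes, 42462 were matched to symbols and positions in GENCODE M21; the 970 others held at most 0.132% of a library's counts. A further 11 columns matched no sample label and were not used.

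Counts of all 12 libraries in 4 groups were fitted with edgeR 4.0.16 (R 4.3.3; filterByExpr with a minimum count of 10, TMM scaling, robust quasi-likelihood), with two-sided tests and Benjamini-Hochberg adjustment over all 16636 genes tested at a threshold of 0.05. The SE is the log2 fold change divided by the square root of F. Replicate libraries were checked to be distinct (chi-square per degree of freedom at least 84.4). Reads without strand cannot separate overlapping genes, and reads of near-identical genes such as defensins may be split. The procedure was run on simulated counts in which few genes changed and no library held transcripts of the other organ. That run does not test it at differences as many and as large as those seen here. Tables and figures were made in Python 3.11.15 with numpy 2.4.6, pandas 2.3.3, matplotlib 3.10.9 and scipy 1.17.1.

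The comparison and the 40 gene lists were chosen with earlier results of these data known. A few genes are not reported here. Named genes are Il25, the 12 largest fitted differences each way (at least 20 CPM in the higher group, groups that do not overlap, called without the 2 libraries that stand apart), up to 4 called members of each list in its majority direction and 2 in the other by level, the 10 narrowest intervals near 0, the 8 highest genes per length in each organ and the 6 largest interactions each way. List genes were left out where their call did not hold under every alternative, unless this is said, and further members and list markers were named after their values were seen. The 15 alternatives were the IL-25- libraries alone, a block on the replicate number, a filter of 5 CPM in 3 libraries or none, limma-voom 3.58.1 (quality weights), DESeq2 1.42.0, scaling by RLE, leaving out each of the 6 libraries or the 2 that stand apart, and leaving out mitochondrially encoded genes.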

Additional observations from a re-analysis of the deposited data

Results flagged for a closer look

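For 52 named genes the tissue difference in IL-25- cells differed from that in IL-25+ cells by the interaction test of edgeR, at an adjusted p between 1.04e-05 (Cd24a) and 0.0488 (Krt23). The value given is the log2 fold change of gallbladder over intestine in IL-25- cells minus that in IL-25+ cells. Directions in IL-25+ cells are signs of the fitted values and were not required to pass a test. The fitted difference in IL-25+ cells was small for some genes, such as Abcc3, Gnat3 and Zfp36.

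Among biliary factors and markers the difference was larger in IL-25- cells for Onecut2 (1.50) and Slc4a4 (1.70), and for Car2 (3.33), Car9 (2.24), Tgfa (1.79), Tjp1 (1.36), Anxa13 (1.84), Wdr72 (5.89) and Zfp36 (3.28), all higher in the gallbladder in both gates as fitted. Fitted as higher in IL-25- gallbladder but lower in IL-25+ gallbladder were Cd24a (5.91), Krt18 (4.30), Krt23 (3.06), F11r (2.81), Ctnnb1 (0.98), Anxa2 (2.01), Anxa10 (11.80), Klf6 (1.86), Cpt1a (2.09) and Abcc3 (1.32). The same held for Slc2a1 (1.65), Slc2a2 (2.22), Reg1 (2.23), Gnat3 (4.92), Hmox1 (7.36), Pilrb2 (8.08), ccdc198 (8.29) and Wnt4 (5.09). Higher in both, but by less in IL-25- cells, were Anxa5 (-2.09) and Egr1 (-1.34).

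Lower in the gallbladder in both gates, and further apart in IL-25+ cells, were the enterocyte-type genes Mgam (1.78), Slc51a (3.60), Car4 (2.0) and Gstm3 (3.09), with B2m (2.81), H2-Q7 (6.79), Cst6 (7.28) and Inf2 (7.40). Further apart in IL-25- cells were Hnf4a (-1.44), Vdr (-1.78), Myo1a (-1.46), Cdhr5 (-2.33), Slc36a1 (-2.22), Adh1 (-3.21) and Kctd12 (-1.65). Lower in IL-25- gallbladder but fitted as higher in IL-25+ gallbladder were Lgr5 (-8.50), Spdef (-9.28), Casr (-9.97), Runx1t1 (-9.46), Rab3b (-8.89), Fxyd6 (-13.00), Tnfrsf8 (-10.63) and Tat (-10.93). In IL-25- gallbladder these 8 had means from 0 (Tnfrsf8) to 1.23 CPM (Runx1t1), so the fitted sizes depend on the prior count.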

How the results depend on the processing

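The number of genes called between the organs was 4099 and stayed within 1.5 times that under all 15 alternatives, from 2974 without gallbladder library 1 and intestinal library 3 to 5601 with limma-voom; leaving out 1 library at a time gave 3042 to 3737. Calls higher in the gallbladder made up 52.7% of them and 49.3 to 59.2% under the alternatives. Of the 4099 genes, 2121 were called in the same direction under every alternative that tested them, 1212 higher and 909 lower. The interaction called 1536 genes, 2364 with DESeq2 (the cause was not tested) and 1106 to 1566 with 1 library left out. With the replicate number as a block 3796 genes were called between the organs. Libraries of the same number correlated in their deviations at -0.032, -0.035 and -0.024, against -0.017 to 0.057 for other pairs. No library correlated best with its own number. Values this near 0 cannot tell whether libraries of the same number shared a mouse, pool or batch, and the labels do not say. For the 216 named genes, 3219 values under alternatives held 2869 on the same side of the threshold in the same direction, 340 no longer past it, 10 newly past it and 0 reversed. Of the 203 of them that were called, the fold change moved by over 1.5 times in 68, 14 and 4 without gallbladder library 1, 2 or 3, and in 5, 39 and 24 without intestinal library 1, 2 or 3. The mitochondrial share differed by -16.8 to -9.93 points with 1 library left out, and by -11.1 without the 2 libraries, a check added after seeing the data. With RLE scaling the median over all genes was -0.07, against -0.03. A group total of 0 counts allows up to 3 counts, 0.0230 CPM over the gallbladder and 0.0280 CPM over the intestinal libraries.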
